A study of Mus musculus with 8 samples.

Results

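The deposited arrays were examined for the genes that make glycerol 3-phosphate in fat cells and build triglyceride on it: Pck1, Gpd1, Gk, Aqp7, Gpd2, Gpam, Agpat2, Lpin1, Dgat1 and Dgat2. Their probe sets, each a group of short probes that reads one transcript, were taken from the platform annotation wherever it named exactly 1 gene and that gene was on the list. This gave 22 probe sets of 9 genes among the 45101 probe sets of the array. The 10th gene, the glycerol kinase Gk, is not named in the annotation used here and was not analysed. A filter on dim probe sets (mean signal of about 275 or more) kept 18 of the 22, at least 1 for each of the 9 genes, among 22519 kept in all.

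Subcutaneous fat was taken after the treatment from 8 male mice, which the series title calls diabetic. The labels give an age of 8 weeks without saying whether it is the age at the start, and no source used here names their strain or the cause of the diabetes. Treatment ran for 10 weeks, 5 days in each, and the labels name gavage for the NBC mice only. The 4 placebo mice (6, 8, 10 and 14) received water, and the 4 NBC mice (5, 9, 11 and 13) received niacin-bound chromium, a complex of chromium with nicotinic acid, in water at a dose of 10 mg/kg. The RNA of each animal's whole fat tissue was hybridised to its own Affymetrix mouse genome array, and precision is limited by there being 4 arrays in a group. Values per mouse are listed in the order 6, 8, 10, 14 for placebo and 5, 9, 11, 13 for NBC.

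Triglyceride is assembled on glycerol 3-phosphate. White fat cells make this backbone from glucose, or from pyruvate and similar precursors through Pck1, and Gpd1 carries out the last step of both routes. The Pck1 route is called glyceroneogenesis and lets fatty acids freed by lipolysis be stored again. Acyltransferases and a phosphatase then add and trim the groups that turn the backbone into triglyceride, and genes of both arms are known targets of the fat cell regulator PPARγ.

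The promoters of Pck1, Aqp7 and Gpam are shown because Pck1 and Aqp7 are the supply genes with the lowest NBC means relative to placebo when each gene is read by its brightest probe set, and Gpam starts the acylation arm, whose median difference lay near 0. Each is the 250 bases before the RefSeq start (GRCm38.p6), 5′ to 3′ on the gene's strand, at chr2:173152823-173153072 (plus strand), chr4:41048137-41048386 (minus strand) and chr19:55127239-55127488 (minus strand). Capitals mark matches, on either strand, to the cAMP response element in the form TTACGTCA, the palindrome TGACGTCA, the nuclear receptor element AGGTCA, the direct repeat of that element with any 1 base between the copies, the TATA-like TATATA and the CCAAT box.
Pck1: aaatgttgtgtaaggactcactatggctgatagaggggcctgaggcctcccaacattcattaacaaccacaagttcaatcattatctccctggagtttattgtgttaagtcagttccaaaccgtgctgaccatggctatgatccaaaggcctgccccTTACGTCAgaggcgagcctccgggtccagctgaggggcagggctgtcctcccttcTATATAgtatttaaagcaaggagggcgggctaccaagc
Aqp7: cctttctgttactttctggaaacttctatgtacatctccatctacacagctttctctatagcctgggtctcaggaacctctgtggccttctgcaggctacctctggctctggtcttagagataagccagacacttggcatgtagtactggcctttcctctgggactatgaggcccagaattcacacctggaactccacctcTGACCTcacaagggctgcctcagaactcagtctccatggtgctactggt
Gpam: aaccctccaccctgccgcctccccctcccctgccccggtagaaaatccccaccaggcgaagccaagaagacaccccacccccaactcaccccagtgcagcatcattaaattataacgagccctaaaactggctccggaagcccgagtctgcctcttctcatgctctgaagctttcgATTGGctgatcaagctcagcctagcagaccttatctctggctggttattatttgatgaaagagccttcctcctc
The set of windows used here covered 7 of the 10 genes, without Gpd1, Dgat1 and Dgat2. It held 10 windows of these genes because some have a second start. In Pck1, TTACGTCA lay 93 to 86 bases before the start and TATATA 38 to 33 bases before it. TTACGTCA occurs in 0.447% and TATATA in 5.25% of the 32851 windows of this length, and neither was found in another member's window. The element AGGTCA, read on the reverse strand as TGACCT in the Aqp7 window printed, occurs in 14.0% of all windows and in 4 of the 10 member windows. The 4 include both Aqp7 windows, which overlap and share the printed match, and the rest belong to Lpin1 and Gpam. A CCAAT box, which 33.8% of windows hold, lay in the printed Gpam window, read as ATTGG on the reverse strand. TGACGTCA (1.55% of windows) and the direct repeat (0.0335%) matched 0 member windows. A match describes letters and shows no binding.

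Before the results, the libraries that stood apart are given. The arrays had the same trimmed mean signal of 1500.01. Of 13 fast skeletal muscle markers 12 were kept, with a summed signal of 5269 to 24213 across the placebo group, 17952 in NBC mouse 9, and 155044 to 170424 in NBC mice 5, 11 and 13. The 3′ to 5′ signal ratio of the Gapdh control transcript, a sign of RNA integrity, was 0.924 to 1.04 across the placebo group, 0.844 in NBC mouse 9, 1.11 in NBC mouse 13, 1.28 in NBC mouse 11 and 1.47 in NBC mouse 5. That of beta-actin set these mice less far apart, at 1.51 to 1.74 across the placebo group and 2.1, 1.51, 1.82 and 1.56 in NBC mice 5, 9, 11 and 13. Summed signals in placebo and NBC mice overlapped for markers of macrophages (79470 to 119214 and 99914 to 165810), endothelium (10319 to 15100 and 9297 to 16452), lymphocytes (2404 to 3964 and 649 to 6081) and skin (1140 to 1645 and 1188 to 1451). The lymphocyte sum was 685 and 649 in NBC mice 11 and 13, below every placebo mouse, and 6081 and 4241 in NBC mice 5 and 9, above every placebo mouse. The summed signals of fibroblast markers did not overlap (184719 to 207308 and 209330 to 262117). Of the 11 kept fibroblast probe sets, 4 were higher in NBC at an unadjusted limma p under 0.05, beside 3.28% of all probe sets. The fat cell markers were present in all mice: 7 of 9 listed genes were kept, and their summed signal was 449336 to 540251 in placebo and 441382 to 512449 in NBC mice. All 7 were lower in NBC when read by their brightest probe sets, from 85.0% (Pparg) to 99.2% (Fabp4) of the placebo mean. Lipe, at 87.7%, did not overlap between the groups. It was 1 of 10 kept fat cell probe sets, beside 2.06% of all probe sets lower without overlap. Adipoq, Cidec and Lep stood at 96.6%, 96.1% and 96.7%, and 0 of the 7 passed an unadjusted limma p of 0.05. In whole tissue, fewer cells of a type and less RNA per cell cannot be told apart.

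NBC and placebo mice were compared to ask whether supplementation went with a different expression of either arm. The clearest difference was in Pck1, whose mean signal in NBC mice was 56.9% of that in placebo mice. Agpat2 was slightly lower in NBC with no overlap between the groups, at 85.0% of the placebo mean. Both kept Aqp7 probe sets were lower in NBC with overlap, at 73.3% (1418849_x_at) and 86.5% (1418848_at). Means of Lpin1, Dgat1 and the brighter Dgat2 probe set lay within 10% of placebo, and Gpd1, Gpd2 and Gpam gave probe sets that pointed in opposite directions. None of the 18 probe sets passed an adjusted p of 0.05 in limma's moderated test, as was true of all 22519 (0.0% called, smallest adjusted p = 0.653). At an unadjusted limma p under 0.05 there were 2 of the 18 member probe sets, both of Pck1 and both lower in NBC. That is 11.1%, beside 6.22% of all probe sets in either direction, 2.94% lower and 3.28% higher. The 2 became 1 without placebo mouse 6, 8 or 14 or NBC mouse 11, 4 without NBC mouse 9 and 5 without placebo mouse 10, and without NBC mouse 9 the count over all probe sets past the adjusted threshold was 18, with no member among them. By groups that did not overlap, 1 of 18 was lower in NBC (Agpat2) and 0 were higher, beside 2.06% lower, 1.79% higher and 3.85% in either direction among all probe sets. Of the 18, 13 had a log2 difference (NBC minus placebo, on the scale of log2 of signal plus 26) below 0, beside 52.1% of all probe sets.

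**Figure D1:**
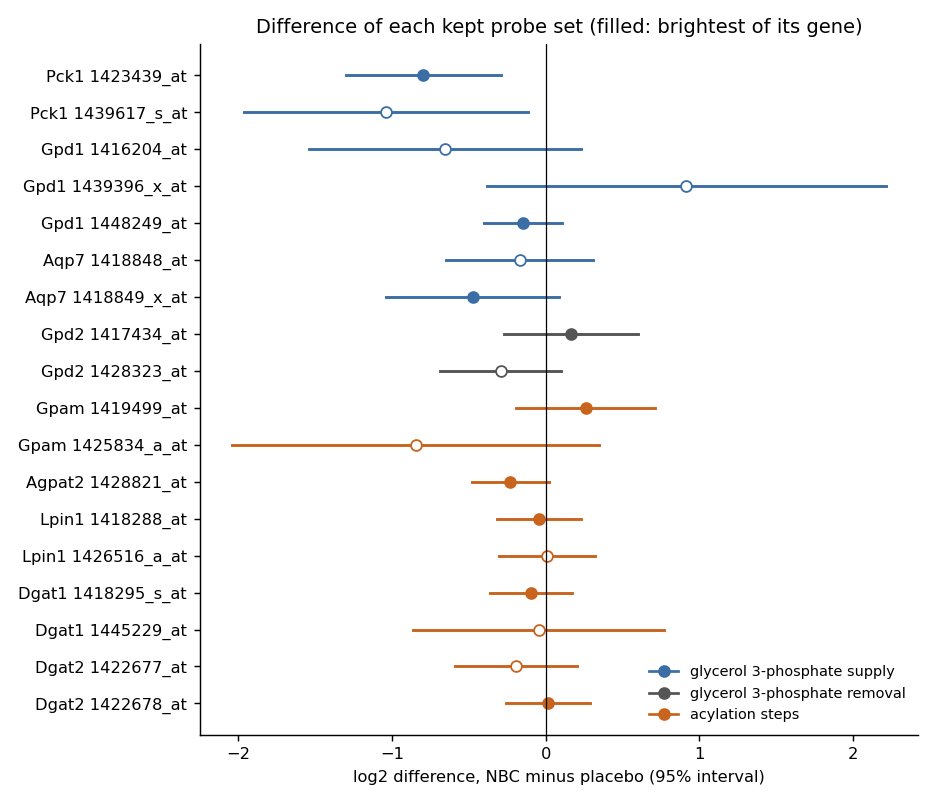
Log2 difference, NBC minus placebo, of the 18 kept probe sets with its 95% interval from limma; filled points are the brightest probe set of each gene, and colours give the arm. Only the intervals of the 2 Pck1 probe sets lie wholly below 0, and the 3 Gpd1 and 2 Gpam probe sets point both ways.

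Pck1 encodes the cytosolic phosphoenolpyruvate carboxykinase, the committed step of glyceroneogenesis. Its brightest probe set, 1423439_at, read 17035, 22170, 11553 and 16686 under placebo against 10708, 11758, 7289 and 8626 under NBC. All 4 NBC mice lay below placebo mice 6, 8 and 14, and the groups overlapped because placebo mouse 10 stood just under NBC mouse 9. Placebo mice averaged 16861 ± 4337 (SD, n = 4), against 9596 ± 2015 (SD, n = 4) with NBC. The log2 difference was -0.80 (SE 0.22, 95% interval -1.30 to -0.29; limma adjusted p = 0.718). By p, Pck1 ranked 85 among the 11662 genes with a kept probe set, and the other members ranked 890 (Agpat2) to 10633 (Dgat2). The list was chosen with earlier results known.

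The second kept Pck1 probe set, 1439617_s_at, read 3790, 5148, 2322 and 3896 under placebo against 1539, 3687, 863 and 1946 under NBC. In it NBC mouse 9 lay at the placebo level, and NBC mice 11 and 5 were the lowest of all 8. Its log2 difference was -1.04 (SE 0.41, 95% interval -1.97 to -0.11; limma adjusted p = 0.778). The third, 1455209_at, was dim at 6.9 to 157 and fell below the filter.

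Without NBC mice 5 and 11, which had the highest Gapdh ratios, the log2 difference of 1423439_at was -0.70 (limma adjusted p = 0.671), with an unadjusted p still under 0.05, while that of 1439617_s_at was -0.44 with an unadjusted p no longer under 0.05. With NBC mouse 9 as the lone NBC mouse, assumed to vary like the others, that is without the 3 mice of high muscle signal, it was -0.48 (limma adjusted p = 0.788) with an unadjusted p no longer under 0.05, and that of 1439617_s_at was 0.02. Brown fat cells also express Pck1, and 6 of 7 brown fat cell markers were kept, 4 with a log2 difference below 0 and 2 above. Ucp1 (-1.39) and Cidea (-0.996) were lower in NBC at an unadjusted limma p under 0.05, beside 2.94% of all probe sets, whereas Ppargc1a (-0.35), Cox7a1 (-0.09), Cox8b (0.06) and Elovl3 (0.16) did not pass it. The summed signal of the 6 was 7589 to 14154 in placebo and 6628 to 11064 in NBC mice. Cidea did not overlap between the groups (1188 to 2099 in placebo, 675 to 875 in NBC mice), beside 2.06% of all probe sets lower without overlap. Elovl3 read 2878 in NBC mouse 13 and 365 to 605 in the other NBC mice. In NBC mice 5, 9, 11 and 13, Cox8b read 6244, 2323, 4424 and 3089, and Cox7a1 read 2248, 1278, 2202 and 1638. The heat-generating uncoupling protein gene Ucp1 read 3819, 3754, 1408 and 4060 under placebo against 838, 1199, 796 and 2078 under NBC. Placebo mouse 10 was thus the lowest of its group in Ucp1 as in Pck1. It also had the highest fast muscle sum of that group (24213, the others 5269 to 10777) and the lowest lymphocyte sum (2404). Its macrophage sum was the lowest of that group (79470, the others 106521 to 119214). Its endothelium (15100) and fibroblast (207308) sums were the highest. NBC mice 11 and 13, the lowest of all 8 in Pck1 1423439_at, were also those with the lowest lymphocyte sums. The part of brown fat cells, muscle, lymphocytes, other cell types and RNA integrity in the Pck1 difference was not tested.

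**Figure D2:**
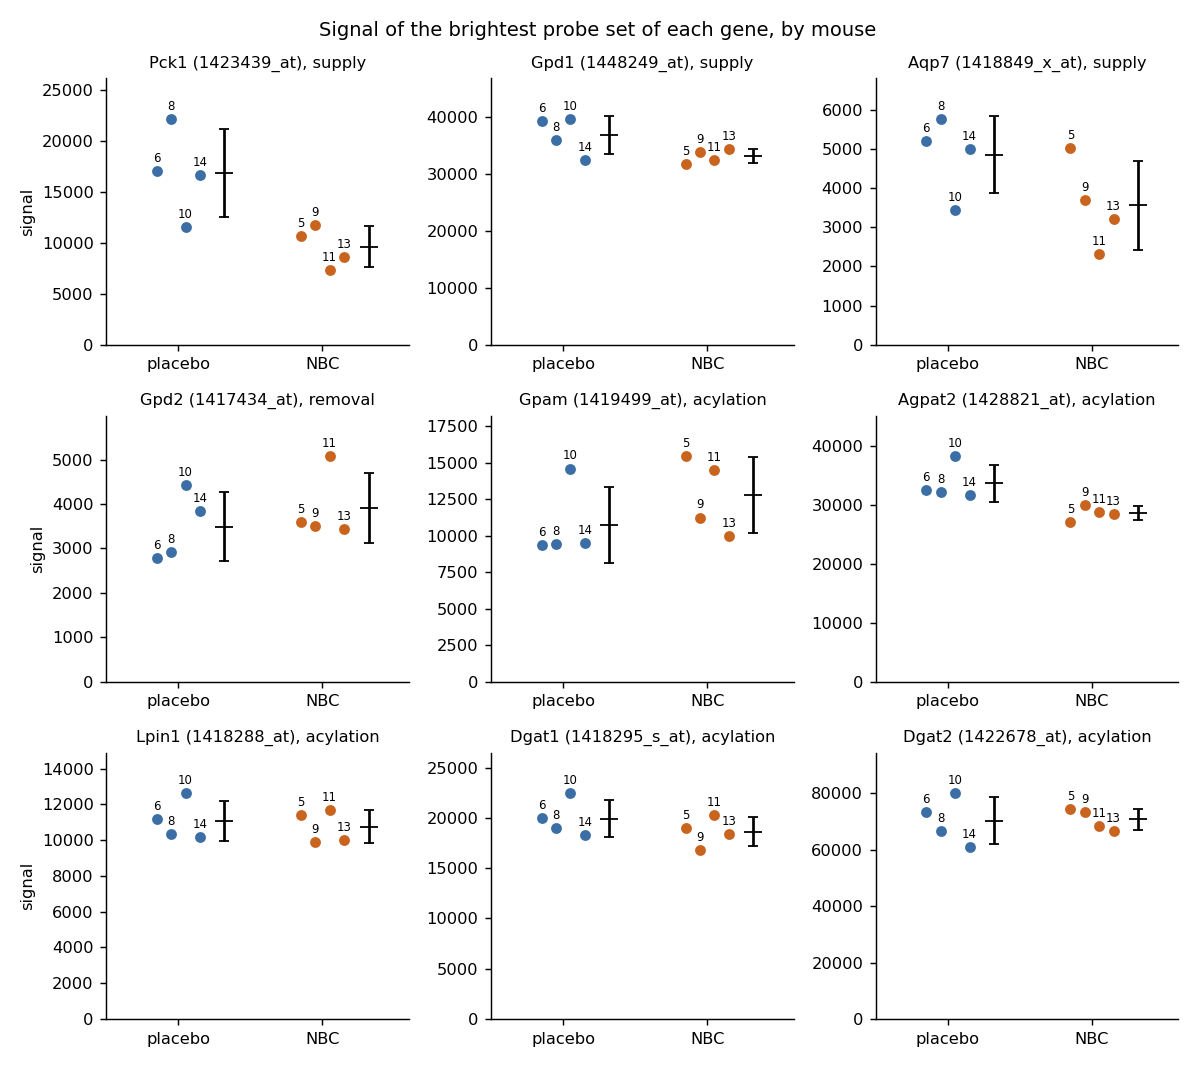
Signal (linear axes from 0) of the brightest probe set of each gene in each mouse, with mouse numbers at the points and the mean with its SD (n = 4 per group) as a black bar. Pck1 is lower in all 4 NBC mice than in placebo mice 6, 8 and 14, Agpat2 shows no overlap, and placebo mouse 10 is the highest placebo mouse in all 5 acylation genes.

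Gpd1, the glycerol 3-phosphate dehydrogenase of the cytosol, makes the backbone from the glycolytic intermediate dihydroxyacetone phosphate. Its brightest probe set, 1448249_at, read 39291, 35944, 39721 and 32547 under placebo against 31843, 33978, 32467 and 34391 under NBC. The NBC values were close together and lay inside or just below the placebo range. The log2 difference was -0.15 (SE 0.11, 95% interval -0.40 to 0.10; limma adjusted p = 0.836).

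A second Gpd1 probe set, 1416204_at, behaved differently. It read 9499, 9979, 11395 and 9169 under placebo against 4846, 12901, 2988 and 8514 under NBC. NBC mice 11 and 5 were far below the placebo range and NBC mouse 9 was above it. The log2 difference of -0.66 (SE 0.39, 95% interval -1.54 to 0.23) became 0.07 without NBC mice 5 and 11. The third, 1439396_x_at, whose _x suffix marks probes that may also bind other transcripts, gave 0.92 (SE 0.57) with 241 to 1487 in placebo and 650 to 1903 in NBC mice. The fourth, 1456732_at, was below the filter at 8.4 to 156.5.

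Aqp7 encodes the aquaglyceroporin through which glycerol crosses the fat cell membrane. Its brighter probe set, 1418849_x_at, whose suffix marks probes that may bind other transcripts, read 5220, 5771, 3454 and 4992 under placebo against 5042, 3694, 2310 and 3204 under NBC. NBC mice 11 and 13, also the lowest in the lymphocyte sum, were below every placebo mouse, while NBC mouse 5 lay among them. The log2 difference was -0.48 (SE 0.25, 95% interval -1.04 to 0.09; limma adjusted p = 0.784), and -0.29 without NBC mouse 11. The other, 1418848_at, had 1098 to 2245 in placebo and 1240 to 1656 in NBC mice and differed by -0.17 (SE 0.21).

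Gpd2, the mitochondrial dehydrogenase that takes glycerol 3-phosphate away by oxidising it, gave no single direction. Probe set 1417434_at read 2794, 2923, 4417 and 3839 under placebo against 3589, 3505, 5076 and 3441 under NBC, a log2 difference of 0.17 (SE 0.19). Probe set 1428323_at gave -0.29 (SE 0.17) with 2565 to 3865 in placebo and 1980 to 3025 in NBC mice. The groups overlapped in both, and the other 2 Gpd2 probe sets, at 151 to 518, were below the filter.

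The acylation arm begins with Gpam, the mitochondrial acyltransferase that adds the first fatty acid. Probe set 1419499_at read 9361, 9417, 14597 and 9486 under placebo against 15442, 11244, 14483 and 9994 under NBC. Placebo mouse 10 and NBC mice 5 and 11 stood high, and the other 5 mice lay together. The log2 difference was 0.26 (SE 0.20, 95% interval -0.19 to 0.71), with 0.01 without NBC mice 5 and 11 and 0.42 without placebo mouse 10.

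The second Gpam probe set, 1425834_a_at, read 929, 961, 750 and 710 under placebo against 210.5, 1361, 206 and 651 under NBC. The same 2 NBC mice that were high in the brighter probe set were the lowest here. The log2 difference was -0.85 (SE 0.53, 95% interval -2.04 to 0.35), and 0.18 without NBC mice 5 and 11.

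In 3 genes, then, NBC mice 5 and 11 were the lowest of all 8 mice in one probe set and less far down or high in another. Relative to its own placebo mean, Pck1 1439617_s_at stood at 40.6% and 22.8% in NBC mice 5 and 11 and at 97.3% in NBC mouse 9. Gpd1 1416204_at stood at 48.4% and 29.8% in mice 5 and 11 and at 129% in mouse 9, and Gpam 1425834_a_at at 25.1%, 24.6% and 163%. The 3′ to 5′ signal ratio of the pyruvate carboxylase control transcript was 34.1 in NBC mouse 5, 37.2 in NBC mouse 11 and 12.1 in NBC mouse 9, beside 16.8 to 19.5 in placebo mice and 19.0 in NBC mouse 13. The part of RNA integrity in these probe set differences was not tested.

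**Figure D3:**
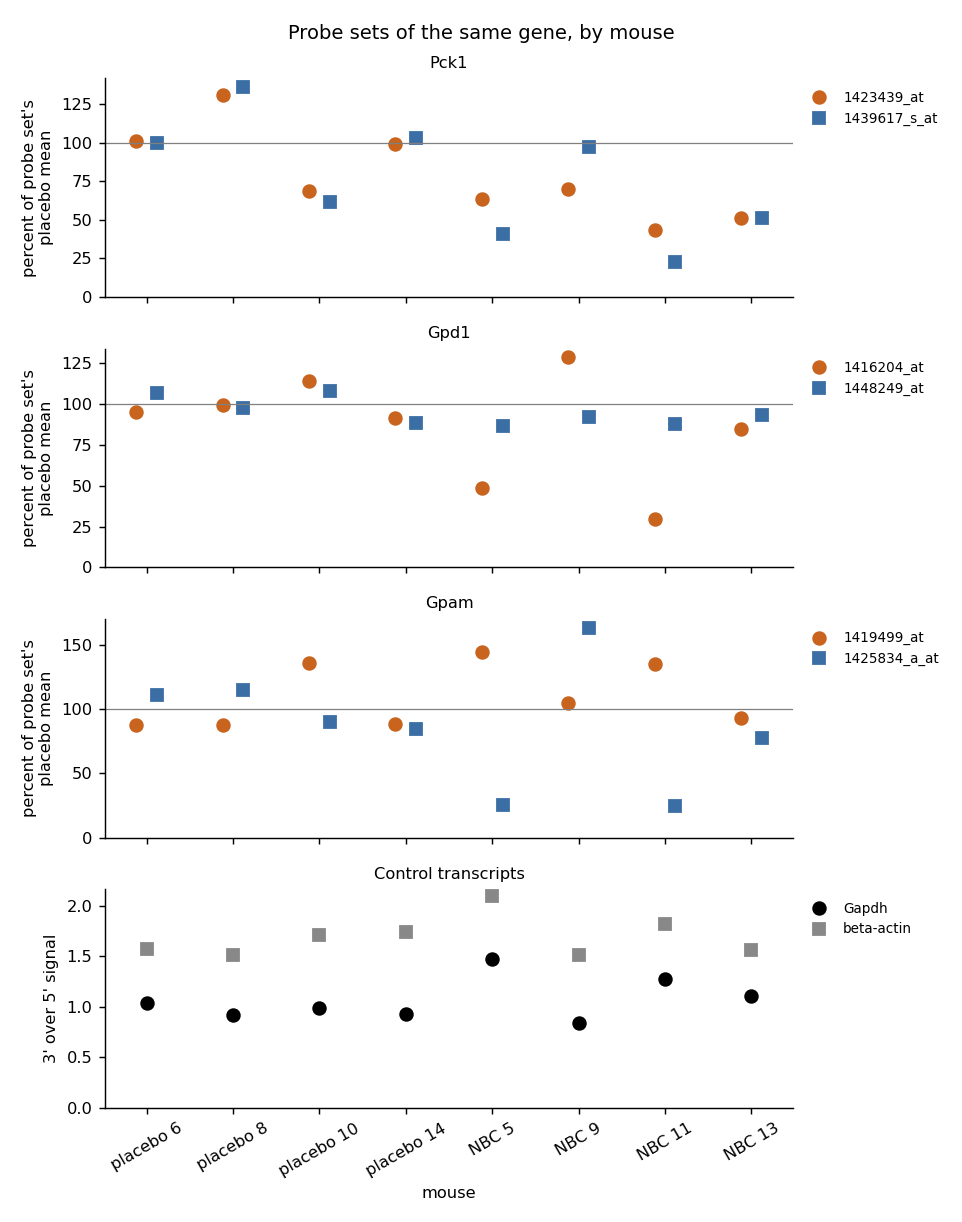
Signal of 2 probe sets each of Pck1, Gpd1 and Gpam in each mouse as a percentage of the probe set's own placebo mean (upper 3 panels, linear axes from 0), above the 3′ to 5′ signal ratio of 2 control transcripts. In NBC mice 5 and 11 one probe set of each gene stands at 22.8% to 48.4% of its placebo mean, and in these mice the Gapdh ratio is 1.47 and 1.28.

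Agpat2 adds the second fatty acid in fat cells, and its loss causes lipodystrophy. Its only probe set, 1428821_at, read 32481, 32220, 38297 and 31737 under placebo against 27182, 30026, 28809 and 28501 under NBC. Every NBC mouse lay below every placebo mouse. Placebo mice averaged 33684 ± 3091 (SD, n = 4), against 28629 ± 1168 (SD, n = 4) with NBC, and the log2 difference was -0.23 (SE 0.11, 95% interval -0.48 to 0.02; limma adjusted p = 0.778). It was -0.20 without NBC mice 5 and 11, and -0.16 with NBC mouse 9 as the lone NBC mouse. Among the fat cell markers, Pparg stood at 85.0% of its placebo mean, Lipe at 87.7% and the rest at 90.7% to 99.2%. Lipe did not overlap between the groups, beside 2.06% of all probe sets lower without overlap. The part of fat cells in the Agpat2 difference was not tested.

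Lpin1, the phosphatidate phosphatase that yields diacylglycerol, overlapped between the groups in both probe sets. Probe set 1418288_at read 11159, 10338, 12618 and 10196 under placebo against 11395, 9872, 11664 and 10018 under NBC. NBC mice 5 and 11 lay inside the placebo range and NBC mice 9 and 13 just below it, and the log2 difference was -0.04 (SE 0.12, 95% interval -0.32 to 0.23). Probe set 1426516_a_at gave 0.01 (SE 0.14, 95% interval -0.31 to 0.32).

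Dgat1 and Dgat2, unrelated enzymes that each add the last fatty acid, also overlapped between groups. Dgat1 1418295_s_at read 19931, 19028, 22436 and 18310 under placebo against 19024, 16814, 20258 and 18374 under NBC, a log2 difference of -0.10 (SE 0.12, 95% interval -0.36 to 0.17). Its other probe set, 1445229_at, was dim at 146.6 to 572.5 and imprecise (-0.05, SE 0.36). Dgat2 1422678_at read 73569, 66745, 80060 and 61104 under placebo against 74544, 73562, 68305 and 66722 under NBC, a log2 difference of 0.01 (SE 0.12, 95% interval -0.26 to 0.29). All Dgat2 values of NBC mice in this probe set fell within the placebo range. Dgat2 1422677_at differed by -0.19 (SE 0.18), with NBC mouse 9 at 58086 and the other NBC mice at 38459 to 42268.

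Taking the brightest probe set of each gene, all 3 measured supply genes had a log2 difference below 0, with a median of -0.48. That median is the value of Aqp7 1418849_x_at, and it was -0.29 without NBC mouse 11 and -0.32 when each gene was read by the mean of its kept probe sets. Aqp7 passes glycerol itself, and the glycerol kinase Gk, which would turn glycerol into glycerol 3-phosphate, was not analysed. Of the 5 acylation genes 3 lay below 0 and 2 above, with a median of -0.04, and the median over all 11662 genes was -0.01. The supply median per mouse, relative to the placebo mean, was 0.10, 0.27, -0.46 and 0.02 under placebo against -0.21, -0.37, -1.04 and -0.57 under NBC. Placebo mouse 10 therefore lay inside the NBC range. The acylation median was 0.00, -0.07, 0.19 and -0.12 in the same placebo mice and 0.05, -0.16, 0.03 and -0.11 in the same NBC mice, and the ranges overlapped in part, with NBC mouse 9 lowest and placebo mouse 10 highest. Placebo mouse 10 was the highest placebo mouse in 5 of 5 acylation genes and the lowest in 2 of 3 supply genes, Pck1 and Aqp7. These medians describe a list chosen with earlier results known and were not tested.

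**Figure D4:**
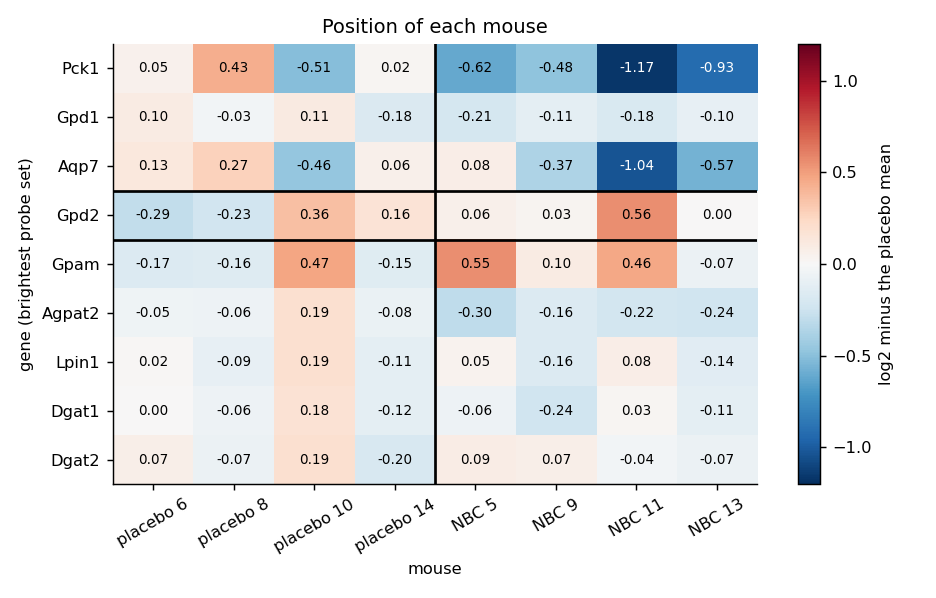
Log2 signal of the brightest probe set of each gene in each mouse minus the mean of the 4 placebo mice; the horizontal lines part the supply genes, Gpd2 and the acylation genes, and the vertical line parts placebo from NBC. NBC mouse 11 is the lowest in Pck1 (-1.17) and Aqp7 (-1.04), and placebo mouse 10 is above 0 in every acylation gene and below 0 in Pck1 and Aqp7.

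Other genes of the pathway were read from a list of 26, of which 25 were named in the annotation and 20 were kept, with 33 probe sets. None passed the adjusted threshold. At an unadjusted limma p under 0.05, 2 of the 33 were lower and 1 was higher in NBC (9.09%, beside 6.22% of all probe sets), and the median over the 20 genes was -0.03. Gpat4, which adds the first fatty acid in the endoplasmic reticulum, read 2592, 2618, 2296 and 3088 under placebo against 1055, 2635, 1603 and 1770 under NBC (1450776_at; log2 difference -0.64, SE 0.25, limma adjusted p = 0.778). NBC mouse 9 lay at the placebo level, and the other 3 NBC mice lay below every placebo mouse. Mogat1, which acylates monoacylglycerol, was dim (399.5, 466.9, 676.5 and 330.6 under placebo against 595.9, 140.0, 157.5 and 49.2 under NBC) and differed by -1.30 (SE 0.55).

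The phosphatidate phosphatase Lpin2 was the one higher: its probe set 1452837_at read 377 to 539 in placebo and 476 to 700 in NBC mice (0.45, SE 0.16), and its brighter probe set 1452836_at gave 0.25 (SE 0.15). The glycerol channel Aqp11 (1447606_x_at, -0.39, SE 0.19) and the acyltransferase Agpat3 (1433818_at, -0.43, SE 0.24) had the next smallest p. Other kept readings were -0.23 for Aqp11 and -0.17 to -0.04 for Agpat3, whose brightest probe set, 1450504_a_at, gave -0.15. The genes nearest to Pck1 in function are the mitochondrial isoenzyme Pck2 and pyruvate carboxylase, Pcx, which makes the oxaloacetate that Pck1 uses. Their differences lay near 0, at -0.02 for Pck2 (1425615_a_at, 95% interval -0.39 to 0.34) and 0.03 for Pcx (1416383_a_at, 95% interval -0.35 to 0.40). Both were picked after their values were seen. Pcx read 21088 and 23254 in NBC mice 5 and 11, 16426 and 15531 in NBC mice 9 and 13, and 16884 to 21931 in placebo mice. In NBC mice 5 and 11 the 3′ to 5′ ratio of the pyruvate carboxylase control was also the highest, at 34.1 and 37.2. The part of RNA integrity in the Pcx reading was not tested.

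Of 11 regulators of the pathway, all with a kept probe set and 19 in all, 0 passed an unadjusted limma p of 0.05 in either direction, and the median over genes was -0.04. The coactivator Ppargc1a (1437751_at) differed by -0.35 (SE 0.18). Pparg, the master regulator of fat cells (1420715_a_at), averaged 16962 ± 1974 (SD, n = 4) with placebo against 14416 ± 965 (SD, n = 4) with NBC, a difference of -0.23 (SE 0.12). Creb1, whose protein binds the cAMP response element, differed by 0.28 (1423402_at, SE 0.20) and by 0.10 to 0.13 or -0.29 in its other kept probe sets. The retinoid receptor Rxra differed by -0.28 (1425762_a_at, SE 0.21), and by -0.16 in its brightest probe set (1454773_at, SE 0.13).

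Over the 8 mice, the genes whose log2 values followed Pck1 most closely were Etfa, an electron carrier of fatty acid oxidation, Ahcyl2 and Pdzrn3, with Pearson r of 0.98, 0.96 and 0.95. For the brightest Gpd1 probe set they were Rab15, Med27 and the carnitine acetyltransferase Crat, with r of 0.94, 0.94 and 0.93. These are the 3 highest of 11662 genes each, they share arrays and groups with the member, and they are given as a description with no test.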

How the data were processed

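Gene expression was measured in 8 samples of subcutaneous fat, 4 per group. The deposited values are linear MAS5 signal intensities, 1 per probe set and array, made by the authors with MAS5 per the submitters' processing notes; no source used here gives its version or any scan batch. Intensities were used as deposited, since every array already had a 2% trimmed mean of 1500.01. Groups and mouse numbers came from the sample titles, which describe separate mice. Of 45101 probe sets, 64 controls were left out of tests. The platform annotation named 1 gene for 34945 and several for 932.

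Signals were taken as log2(signal + 26), 26 being the 10th percentile of all values, which understates differences of dim transcripts. Probe sets with a mean at or above the median of all were kept (22519). NBC was compared with placebo in limma 3.58.1 (R 4.3.3; lmFit and eBayes, no covariate) with Benjamini-Hochberg adjustment over all kept probe sets. The fit was tested on simulated arrays, drawn as independent normal values with the real means and spreads. At the adjusted threshold, 52.0% of simulated 2-fold and 94.0% of 4-fold changes were recovered, and 11 unchanged probe sets were called. The simulated arrays held no muscle or RNA integrity differences shared between probe sets. Where a gene had several kept probe sets, the brightest stood for it. The members, lists and tests were chosen with earlier results of these data known. All member probe sets are named; of the other pathway genes up to 6, of the regulators up to 4 with the smallest p (Pck2 and Pcx, outside this rule, were chosen after their values were seen), and for Pck1 and Gpd1 the 3 most alike genes by Pearson correlation. Alternatives covered pseudocount, filter, scaling, variance model, array weights and mice left out; 2 of them, without NBC mice 5 and 11 and without NBC mice 5, 11 and 13, were chosen after seeing the data.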

Additional observations from a re-analysis of the deposited data

Results flagged for a closer look

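A search was made for groups of 4 values that held a mouse far from the other 3, which chance gives in about 1 in 20 independent groups of normal values. The 36 groups examined (18 probe sets in each group of mice) share the same mice, and some share a gene. They are not independent, so no excess is read from the count. In all, 4 held such a mouse. In 3 of the 4 it was placebo mouse 10: Gpam 1419499_at read 14597 there against 9361 to 9486 in the other placebo mice, Agpat2 1428821_at read 38297 against 31737 to 32481, and Dgat2 1422677_at read 63149 against 44254 to 47425. In the fourth, Gpd2 1417434_at read 5076 in NBC mouse 11 against 3441 to 3589 in the other NBC mice.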

How the results depend on the processing

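Of the 18 member probe sets, 9 kept their direction in all 18 alternatives, Pck1 1423439_at and Agpat2 1428821_at among them, and 9 changed sign in at least 1. The log2 difference of Pck1 1423439_at ranged from -0.97 to -0.48, and the lowest adjusted p of any member in any alternative was 0.256. Without NBC mice 5, 11 and 13 the sign turned in Pck1 1439617_s_at (0.0162), Gpd1 1416204_at (0.3701), Aqp7 1418848_at (0.0025), Gpam 1425834_a_at (0.6954), Lpin1 1426516_a_at (-0.1536), Dgat1 1445229_at (0.0804) and Dgat2 1422677_at (0.215). Without NBC mice 5 and 11 it turned in Gpd1 1416204_at (0.0711), Gpam 1425834_a_at (0.1782), Lpin1 1426516_a_at (-0.1838) and Dgat1 1445229_at (0.1943). Array weights turned Lpin1 1418288_at (0.0181), and centring on the median (-0.0058) or quantile normalization (-0.0037) turned Lpin1 1426516_a_at. With 1 mouse left out at a time, the difference ran from -0.0847 to 0.0205 for Lpin1 1418288_at, -0.071 to 0.0799 for Lpin1 1426516_a_at, -0.2654 to 0.3325 for Dgat1 1445229_at and -0.0511 to 0.0788 for Dgat2 1422678_at. Member probe sets at an unadjusted p under 0.05 numbered 2, 5 with array weights, 3 with a trended variance, 3 with no filter, 1 without NBC mice 5 and 11, 1 without NBC mice 5, 11 and 13, and 1 to 5 with 1 mouse left out (5 without placebo mouse 10, 4 without NBC mouse 9, and 1 without NBC mouse 11 or placebo mouse 6, 8 or 14). The supply median (-0.48) ran from -0.66 to -0.29 with 1 mouse left out. The count of all probe sets past the adjusted threshold was 0, and 0 to 18 with 1 mouse left out (18 without NBC mouse 9). The cause was not tested, and fewer mice enter each leave-out. No paired analysis was possible because the mouse numbers differ between the groups.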
